A study of Mus musculus with 8 samples.

Results

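The 10 genes described here belong to the unfolded protein response, the programme by which a cell answers misfolded protein in the endoplasmic reticulum (ER). They are Hspa5, Dnajb9, Pdia4, Sdf2l1, Manf, Creld2, Herpud1, Xbp1, Atf4 and Ddit3, taken by symbol from a count table of 24369 gene symbols. They were listed with earlier results of these data in view, and Herpud1 was chosen by its measured level in the 2 EGFP-positive groups, which was far higher in cDC1 than in cDC2. All 10 passed the filter on low counts, which 11394 genes passed. The cells were conventional dendritic cells (cDC) sorted by flow cytometry from MC38-EGFP tumours in wild-type mice, MC38 being a mouse colon carcinoma line that here carries enhanced green fluorescent protein. A dendritic cell holding EGFP can thus be separated from one without it. Each subset, cDC1 (known for cross-presentation to CD8 T cells) and cDC2 (known for priming CD4 T cells), was split into cells with and without EGFP, which gave 4 groups of 2 libraries. The series title concerns sitagliptin, but the labels name no drug for any of the 8 libraries, no age, and no statement that replicates came from separate animals. The p-values therefore reflect the spread between these samples alone, and that spread may be technical.

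In the unfolded protein response, 3 sensors in the ER membrane act in parallel. IRE1 splices Xbp1 mRNA into a form that encodes an active transcription factor, PERK phosphorylates eIF2alpha so that Atf4 is translated and in turn drives Ddit3 (CHOP), and ATF6 is cut in the Golgi to release a transcription factor. ATF6 and XBP1 act on chaperone genes and on genes of ER-associated degradation (ERAD), which returns misfolded proteins to the cytosol. In dendritic cells, cDC1 are known for constant activity of the IRE1 and XBP1 branch. Gene-level counts do not separate spliced from unspliced Xbp1 and do not show translation of Atf4.

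The promoters of 9 members were found in RefSeq (GRCm38.p6), as windows from 250 bases before to 50 bases after the start; Manf is named only. Each window was searched on both strands for 4 motifs: the ER stress elements ERSE and ERSE-II, the UPRE core (TGACGTGG) and a C/EBP-ATF composite site (TGATGNAA). An ERSE match has 19 letters, of which the first 5 and the last 5 are fixed and the 9 between them may be any base, and an ERSE-II match has 11 letters, of which all but the sixth are fixed; the fixed letters are those of the matches printed here. ERSE, ERSE-II and the UPRE core share a run of 5 letters on one strand or the other. The 3 windows with an ERSE or ERSE-II match are shown because they belong to the member singled out between the EGFP-positive groups and to a pair of chaperone-type members whose levels did not follow it. Capitals mark the matched motifs, and every sequence reads 5′ to 3′ on the gene's strand, which is the plus strand for all 3 (chr8:94386179-94386478 for Herpud1, chr2:34771840-34772139 for Hspa5 and chr15:88819396-88819695 for Creld2).
Herpud1: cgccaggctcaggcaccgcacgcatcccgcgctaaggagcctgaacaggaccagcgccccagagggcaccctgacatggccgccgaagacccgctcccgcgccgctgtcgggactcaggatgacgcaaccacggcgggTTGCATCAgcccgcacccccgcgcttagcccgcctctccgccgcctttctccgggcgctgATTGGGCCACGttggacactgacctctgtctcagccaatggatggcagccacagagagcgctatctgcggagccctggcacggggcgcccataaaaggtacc
Hspa5: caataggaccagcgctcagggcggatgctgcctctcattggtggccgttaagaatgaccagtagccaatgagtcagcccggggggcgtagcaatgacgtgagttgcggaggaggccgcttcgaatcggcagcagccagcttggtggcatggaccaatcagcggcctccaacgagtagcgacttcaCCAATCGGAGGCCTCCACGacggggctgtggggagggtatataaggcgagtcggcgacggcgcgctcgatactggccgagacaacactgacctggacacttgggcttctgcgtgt
Creld2: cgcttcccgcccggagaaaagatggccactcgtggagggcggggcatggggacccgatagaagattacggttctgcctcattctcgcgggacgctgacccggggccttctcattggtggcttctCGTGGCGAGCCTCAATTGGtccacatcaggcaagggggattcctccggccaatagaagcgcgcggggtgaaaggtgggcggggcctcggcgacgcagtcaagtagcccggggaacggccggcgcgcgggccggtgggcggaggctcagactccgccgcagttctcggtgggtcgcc

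The Herpud1 window held ATTGGGCCACG, an ERSE-II match, from −52 to −42 relative to the start. ERSE-II occurred in 12 of 32851 promoter windows (0.0365%) and in no other member's window. Herpud1 also held TTGCATCA, a C/EBP-ATF match on the opposite strand, from −112 to −105, a motif present in 1304 windows (3.97%). Hspa5 held the ERSE match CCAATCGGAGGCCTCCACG from −65 to −47. Creld2 held its ERSE match on the opposite strand from −126 to −108, printed on the gene's strand as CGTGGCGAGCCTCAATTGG. ERSE occurred in 39 windows (0.119%), and the UPRE core occurred in 222 (0.676%) but in 0 of the 9 member windows. These are exact matches of letters in a window of fixed length, not measured binding. Near matches, with a fixed letter changed, were not sought, so a window without a match may still hold one.

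Library totals ran from 17869441 to 22195681 counts, of which the ribosomal precursor Rn45s took 19.4% to 35.6%. The EGFP-positive cDC1 libraries stood apart from the rest: they held counts for 8553 and 8208 genes against 9602 to 11922 elsewhere, and their replicates correlated at 0.629 (Pearson, across genes, on log2 of CPM plus 1, CPM being counts scaled to a common library size) against 0.850 to 0.898 in the other groups. Summed cDC1 markers were 5410 and 6444 CPM in EGFP-negative cDC1, 2848 and 3285 in EGFP-positive cDC1 and 357 to 897 in the cDC2 libraries. The 9 cDC2 markers summed to 722 to 990 CPM in cDC2 libraries and 6.83 to 486 in cDC1 libraries. The 13 macrophage markers summed to 19034 to 39833 CPM in cDC2 libraries, 2029 and 2501 in EGFP-negative cDC1, and 390 and 11509 in EGFP-positive cDC1. Of 9 markers shared by both subsets, 8 were higher and 1 lower in cDC1 without EGFP. Among them, Zbtb46, a factor that defines conventional dendritic cells, was at 10.1 to 37.1 CPM in cDC1 libraries and at 0 to 1.04 in cDC2 libraries. Itgax overlapped, at 8.05 to 83.0 CPM in cDC1 libraries and 51.9 to 82.6 in cDC2 libraries. The labels enter colon cancer as the cell type. The 9 epithelial markers summed to 136 and 49.3 CPM in EGFP-positive cDC1, mostly Msln (136) in replicate 1 and Cdh1 (49.3) in replicate 2, and to 0.431 to 26.0 in the other 6 libraries; Krt8, Krt20 and Cldn4 were at 0 in all 8, and Epcam and Krt18 reached 9.69 and 10.49 in 1 EGFP-negative cDC1 library. The 5 plasma cell markers, a cell type rich in ER, summed to 103 and 85.3 CPM in EGFP-positive cDC1, 2.48 and 0 in EGFP-negative cDC1 and 60.1 to 102 in cDC2; these sums were nearly all Sdc1 and Prdm1, and Mzb1 and Cd79a were at 0 in all 8. The part of these cell types in the results was not tested. In such bulk libraries, fewer cells of a type and less RNA per cell cannot be told apart.

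The members differed widely in abundance. Their summed level was 1585 to 2251 CPM per library, with library sizes scaled by the trimmed mean of M-values (TMM). Per kilobase of exon, the median over the 8 libraries was highest for Hspa5, at 208 CPM per kb, and the lowest Hspa5 level of 192 was exceeded by 1 library of 1 other member, Herpud1 at 257 CPM per kb in replicate 1 of EGFP-positive cDC1. Sdf2l1 followed with a median of 78.5 CPM per kb, then Xbp1 with 53.0, Creld2 with 52.5, Atf4 with 52.1, Herpud1 with 40.8, Manf with 39.8, Pdia4 with 25.9, Dnajb9 with 23.5 and Ddit3 with 9.98. Below Hspa5, each member's range over libraries overlapped that of its neighbour in this order. Herpud1 ran from 14.03 to 257 CPM per kb.

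**Figure D1:**
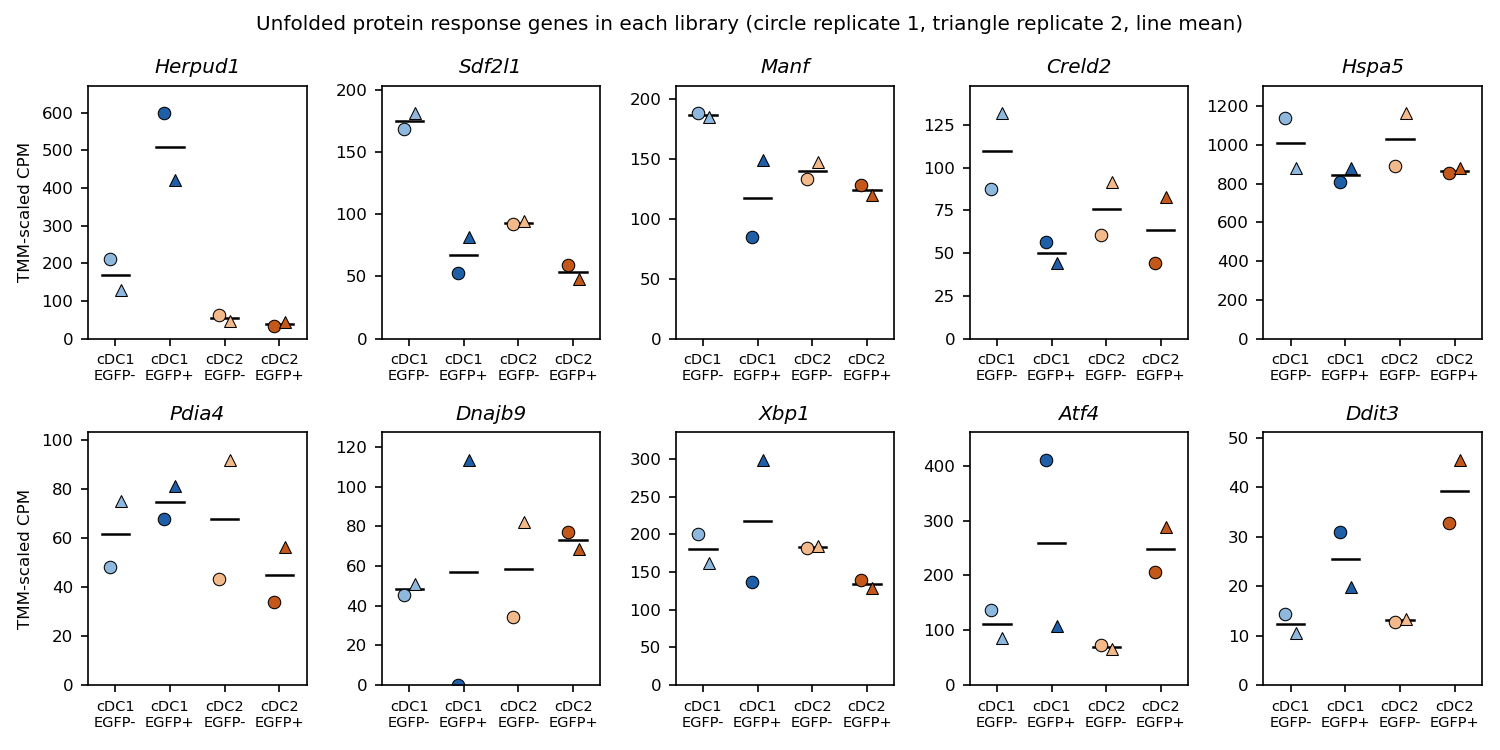
TMM-scaled CPM of the 10 members in each of the 8 libraries, on linear axes from 0 with 1 panel per gene; circles are replicate 1, triangles replicate 2 and lines the means of the 2 libraries of a group. Herpud1 runs from 32.7 to 599 CPM with the cDC1 groups on top, Hspa5 stays within 810.1 to 1164 CPM, and Dnajb9 has 1 library at 0.0438 CPM.

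Hspa5 (BiP), on chromosome 2 (34771970 to 34777547, GRCm38), is the main Hsp70-type chaperone of the ER and holds the sensors inactive when it is free. Its levels were 1136 and 882 CPM in EGFP-negative cDC1, 810.1 and 878 in EGFP-positive cDC1, 892 and 1164 in EGFP-negative cDC2 and 852 and 879 in EGFP-positive cDC2. Every EGFP-positive library was below every EGFP-negative library, but the nearest values were 879 and 882 CPM, and they overlapped under RLE scaling and with Rn45s removed. Over both subsets the log2 difference was −0.25 ± 0.23 (SE, 4 libraries a side), with an edgeR adjusted p of 1.

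Dnajb9 (ERdj4), on chromosome 12 (44205559 to 44210326), is an Hsp40-type cofactor of BiP. It had 45.4 and 51.2 CPM in EGFP-negative cDC1, 34.2 and 82.3 in EGFP-negative cDC2 and 77.4 and 68.5 in EGFP-positive cDC2. In EGFP-positive cDC1 it had 1 count (0.0438 CPM) in replicate 1 and 1620 counts (114 CPM) in replicate 2. These are the lowest and the highest of the 8 libraries and carry the same group label, so the group mean of 56.9 ± 80.4 CPM (SD, n = 2) describes neither. A count of 1 among 20039994 lies under the floor of 3 counts, which allows up to 0.150 CPM in that library for counting error only. Pdia4 (ERp72), a protein disulfide isomerase on chromosome 6 (47796141 to 47813430), had 48.0 and 75.4 CPM in EGFP-negative cDC1, 68.0 and 81.2 in EGFP-positive cDC1, 43.2 and 92.1 in EGFP-negative cDC2 and 33.7 and 56.4 in EGFP-positive cDC2. Its EGFP-positive and EGFP-negative libraries overlapped within both subsets.

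Sdf2l1, on chromosome 16 (17130138 to 17132383), encodes an ER protein that works with Hsp40 cofactors of BiP. It had 169 and 182 CPM in EGFP-negative cDC1 and 53.1 and 81.9 in EGFP-positive cDC1. It had 92.0 and 94.5 CPM in EGFP-negative cDC2 and 59.6 and 48.0 in EGFP-positive cDC2. The 4 EGFP-positive libraries lay below the 4 EGFP-negative libraries, with nearest values of 81.9 and 92.0 CPM. The log2 difference between EGFP-positive and EGFP-negative cells was −1.38 ± 0.35 in cDC1, −0.79 ± 0.35 in cDC2 and −1.09 ± 0.29 over both subsets. By edgeR's quasi-likelihood test none of these passed after Benjamini-Hochberg adjustment over all genes, with adjusted p of 0.215, 1 and 0.951. By DESeq2, Sdf2l1 fell in EGFP-positive cDC1 (log2 −1.26, adjusted p 0.0110) and over both subsets (log2 −1.04, adjusted p 0.0257), but not in cDC2 alone (log2 −0.81, adjusted p 0.732). Without replicate 2 of EGFP-positive cDC1, which leaves 1 library in that group, the edgeR log2 difference in cDC1 was −1.72.

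Manf, on chromosome 9 (106838312 to 106891979), encodes a secreted ER protein that binds BiP. Its levels were 188 and 185 CPM in EGFP-negative cDC1, 85.1 and 149 in EGFP-positive cDC1, 133 and 147 in EGFP-negative cDC2 and 128 and 119 in EGFP-positive cDC2. The EGFP-positive libraries were below the EGFP-negative libraries within each subset, with log2 differences of −0.67 ± 0.35 in cDC1 (edgeR adjusted p 0.422) and −0.18 ± 0.35 in cDC2 (adjusted p 1). Creld2, on chromosome 15 (88819646 to 88826683), encodes an ER protein with disulfide isomerase activity. It had 87.7 and 132 CPM in EGFP-negative cDC1 and 56.2 and 44.1 in EGFP-positive cDC1, with no overlap. In cDC2 it had 60.5 and 91.3 CPM in EGFP-negative cells and 44.4 and 83.0 in EGFP-positive cells, which overlapped. Its log2 difference in cDC1 was −1.13 ± 0.46 (edgeR adjusted p 0.377). Exons of Manf share 146 bases with Dcaf1 and 166 bases with 4930524O07Rik on the opposite strand, and because the use of strand in counting is not given in the sources used here, reads there could not be assigned to 1 gene.

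Herpud1, on chromosome 8 (94386438 to 94395377), encodes an ER membrane protein that helps assemble the ERAD machinery. It had 599 and 420.1 CPM in EGFP-positive cDC1, 211 and 128 in EGFP-negative cDC1, 62.2 and 47.0 in EGFP-negative cDC2 and 32.7 and 43.2 in EGFP-positive cDC2. These levels gave a descending order of 4 groups with no overlap between neighbours, although the closest neighbours, the cDC2 groups, were separated only by 43.2 and 47.0 CPM. The difference that led to its choice, cDC1 against cDC2 among EGFP-positive cells, was 3.75 ± 0.42 on the log2 scale, a 13.4-fold ratio, and is given without a test. In that comparison the edgeR threshold was passed by 0.228% of all genes, 0.114% higher and 0.114% lower in cDC1. The other members there ran from −0.62 for Ddit3 to 0.73 for Pdia4, also described without a test; 3 of the 10 did not overlap between the groups, beside 46.9% of all genes (13.7% higher and 33.2% lower in cDC1), and nothing is read from that count.

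Among EGFP-negative cells, whose libraries did not choose it, Herpud1 was at 169 ± 58.4 CPM in cDC1 and 54.6 ± 10.8 in cDC2 (SD, n = 2 each). The log2 difference was 1.63 ± 0.39, a 3.10-fold ratio, with both cDC1 libraries above both cDC2 libraries. It did not pass by edgeR (adjusted p 0.184) and passed by DESeq2 (log2 1.58, adjusted p 0.0264). Without replicate 1 of EGFP-positive cDC1 in the shared model, the edgeR log2 difference was 1.63 as well. The macrophage markers stood at 2029 and 2501 CPM against 31492 and 39833 in the same libraries; their part in the Herpud1 difference was not tested.

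EGFP-positive cDC1 had 3.01 times the Herpud1 level of EGFP-negative cDC1 (log2 1.59 ± 0.39), and EGFP-positive cDC2 had a log2 difference of −0.52 ± 0.38 from EGFP-negative cDC2. Both values share libraries with the difference that chose the gene and carry no test. The macrophage markers differed between the EGFP-positive cDC1 replicates (390 and 11509 CPM), in which Herpud1 was at 599 and 420.1 CPM. Averaged over subsets the log2 difference was 0.53 ± 0.47, also without a test, since the same libraries enter it.

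Xbp1, on chromosome 11 (5520659 to 5525893), encodes the transcription factor that IRE1 activates by splicing. It had 200.3 and 162 CPM in EGFP-negative cDC1, 137 and 299.5 in EGFP-positive cDC1, 182 and 184 in EGFP-negative cDC2 and 140.0 and 129 in EGFP-positive cDC2. The cDC1 and cDC2 libraries without EGFP overlapped, at a log2 difference of −0.02 ± 0.40 (edgeR adjusted p 1). The replicates of EGFP-positive cDC1 thus differed more from each other than those of any other group. In those replicates Ccr7, a chemokine receptor of migrating dendritic cells, stood at 368 CPM in replicate 1 and 5498 CPM in replicate 2.

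Atf4, on chromosome 15 (80255184 to 80257541), encodes the transcription factor translated after eIF2alpha is phosphorylated. It had 138 and 86.4 CPM in EGFP-negative cDC1 and 411 and 108 in EGFP-positive cDC1, which overlapped. It had 72.4 and 66.2 CPM in EGFP-negative cDC2 and 207 and 289 in EGFP-positive cDC2, which did not. The log2 difference was 1.84 ± 0.61 in cDC2 (edgeR adjusted p 1), 1.21 ± 0.60 in cDC1 (adjusted p 0.411) and 1.53 ± 0.42 over both subsets (adjusted p 0.951; DESeq2 adjusted p 0.0692). The cDC1 value rested on replicate 1 of EGFP-positive cDC1, without which it was −0.05, and without replicate 2 of that group it was 1.88.

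Ddit3, on chromosome 10 (127290774 to 127296288), encodes CHOP, a factor induced by ATF4 and linked to cell death under lasting stress. It was the least abundant member, with 14.4 and 10.4 CPM in EGFP-negative cDC1, 31.1 and 19.8 in EGFP-positive cDC1, 12.8 and 13.4 in EGFP-negative cDC2 and 32.7 and 45.7 in EGFP-positive cDC2. All 4 EGFP-positive libraries were above all 4 EGFP-negative libraries. The log2 difference was 1.03 ± 0.66 in cDC1 (edgeR adjusted p 0.491), 1.58 ± 0.67 in cDC2 (adjusted p 1) and 1.31 ± 0.52 over both subsets (adjusted p 0.951; DESeq2 adjusted p 0.0572). Exons of Ddit3 share 105 bases (6.13%) with a second protein-coding Ddit3 record on the same strand, and 68 bases (3.97%) with Mars, a methionyl-tRNA synthetase gene on the opposite strand, so reads there could not be assigned to 1 gene. Mars was at 40.5 and 40.2 CPM in EGFP-negative cDC2 and 18.6 and 18.8 in EGFP-positive cDC2, the opposite order to Ddit3, and at 40.7, 59.1, 167 and 64.01 CPM in the EGFP-negative and then the EGFP-positive cDC1 libraries.

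**Figure D2:**
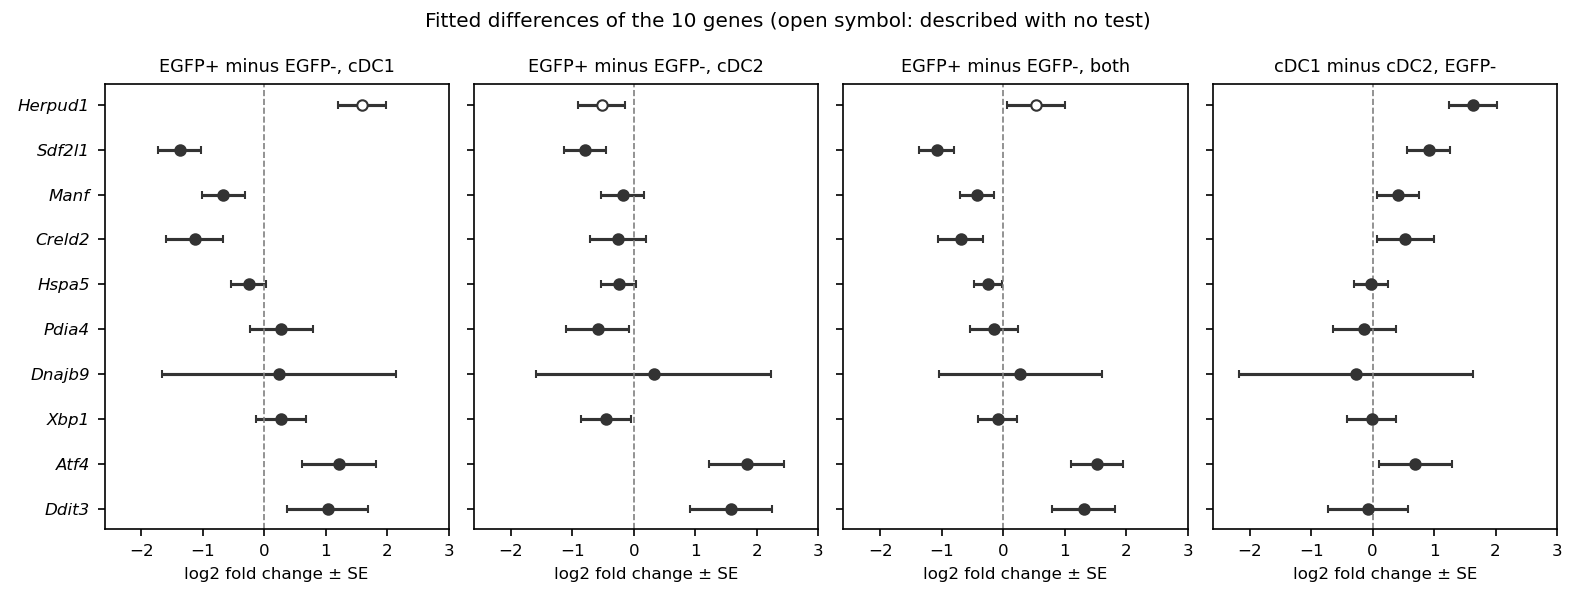
Log2 difference with its standard error (bars) for each member in 4 comparisons, from the edgeR models over 8 libraries; a dashed line marks 0 and open symbols are described with no test. Atf4 and Ddit3 lie above 0 and Sdf2l1 below 0 in the EGFP comparisons of both subsets, whereas Herpud1 is at 1.59 in cDC1 and −0.52 in cDC2.

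Between the subsets without EGFP, 0 of 10 members passed by edgeR, where 0.36% of all genes passed (0.114% higher and 0.246% lower in cDC1); 2 of 10 had an unadjusted p under 0.05 (Herpud1 and Sdf2l1), against 9.58% of all genes, and DESeq2 called 1, Herpud1, against 7.97%. Sdf2l1 was 0.91 ± 0.35 higher on the log2 scale in cDC1 (edgeR adjusted p 0.474). The libraries of the groups did not overlap for 4 members, all higher in cDC1 (Herpud1, Sdf2l1, Atf4 and Manf), where 48.4% of all genes did not overlap and 21.9% did so in that direction. The members' median log2 difference was 0.20, against −0.04 over all genes.

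For EGFP in cDC1, 0 of the 9 members tested passed by edgeR, as did 0% of all genes; 2 of 9 had an unadjusted p under 0.05 (Sdf2l1 and Creld2), against 12.7% of all genes, and DESeq2 called 1 against 12.3%. Of 10 members, 6 did not overlap, 2 higher (Herpud1 and Ddit3) and 4 lower (Hspa5, Sdf2l1, Manf and Creld2) in EGFP-positive cells, beside 35.5% of all genes, 11.5% higher and 24% lower. Hspa5 overlapped under RLE scaling and with Rn45s removed, and under RLE scaling Pdia4 no longer did. For EGFP in cDC2, 0 of 9 passed by edgeR or DESeq2, beside 0% and 1.03% of all genes, and 2 of 9 had an unadjusted p under 0.05 (Atf4 and Ddit3), beside 2.63%. There 7 of 10 did not overlap, 2 higher (Atf4 and Ddit3) and 5 lower (Hspa5, Herpud1, Xbp1, Sdf2l1 and Manf). Of all genes 41.7% did not overlap, 22.6% higher and 19.2% lower. The members' median log2 difference was 0.25 in cDC1 and −0.25 in cDC2, against −0.04 and 0.08 over all genes.

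Over both subsets, 0 of the 9 members tested passed by edgeR beside 0% of all genes, 3 of 9 had an unadjusted p under 0.05 (Sdf2l1, Atf4 and Ddit3) beside 5.22%, and DESeq2 called Sdf2l1 beside 1.75% of all genes. The 4 EGFP-positive libraries did not overlap the 4 EGFP-negative libraries for 3 members, Ddit3 higher and Sdf2l1 and Hspa5 lower. Of all genes 2.97% did not overlap, 0.965% higher and 2% lower. Under RLE scaling or with Rn45s removed there were 2 such members, without Hspa5. The difference between the EGFP effects of the subsets was not past the threshold for any of the 9 members tested, with edgeR adjusted p of at least 0.682; 0 of 9 had an unadjusted p under 0.05, beside 10.4% of all genes, and DESeq2 called 0 of 9 beside 7.09%.

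The members did not vary as 1 block over the 8 libraries. Of their 45 pairs, 24 had a positive and 21 a negative Pearson correlation of log2 of CPM plus 1, with a median of 0.13. Ddit3 and Atf4 varied together (0.87), as did Sdf2l1 and Manf (0.87). Dnajb9 and Manf had a correlation of 0.71, which leaned on 1 library, replicate 1 of EGFP-positive cDC1. Both genes were at their lowest there, Dnajb9 at 0.0438 CPM and Manf at 85.1 CPM. The lowest correlations were −0.88 for Ddit3 and Sdf2l1, −0.71 for Atf4 and Manf and −0.70 for Ddit3 and Manf. These values describe 8 libraries that share groups and scaling and are not independent points.

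**Figure D3:**
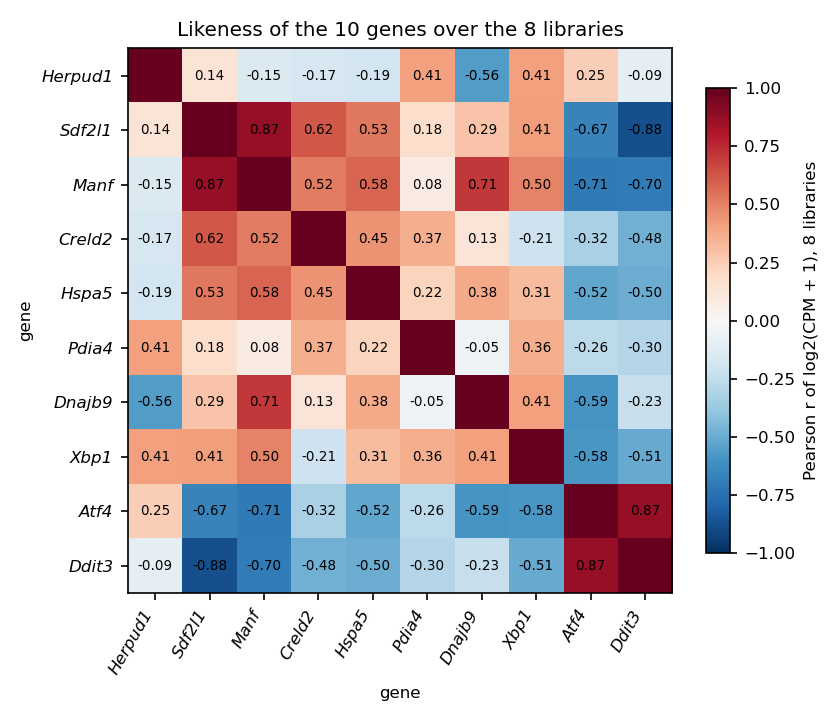
Pearson correlation between members over the 8 libraries, on log2 of CPM plus 1, as a coloured matrix from −1 to 1. Ddit3 and Atf4 form a positive pair at 0.87 and are negative with Sdf2l1 and Manf, down to −0.88.

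Of 6068 genes with a mean of at least 10 CPM, those most like Herpud1 over the 8 libraries were Itm2c (Pearson 0.96), Irf5 (0.96), Ly75 (0.96), Nono (0.95) and Mob3a (0.95). Ly75 encodes the endocytic receptor DEC-205 and Irf5 a transcription factor of innate immunity. Itm2c had 468.6 and 480.1 CPM in EGFP-positive cDC1, 292 and 234 in EGFP-negative cDC1, 168 and 162 in EGFP-negative cDC2 and 102 and 89.1 in EGFP-positive cDC2, the same order of groups as Herpud1. No other member was among these 5, which are a small part of the 6068 genes, so nothing is read from that.

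The rest of the pathway was read from lists that hold none of the 10 members. By edgeR, 1 gene of these lists passed between the subsets among EGFP-positive cells, Hgsnat, lower in cDC1. In the subset comparison without EGFP and in the EGFP comparisons 0 passed. Counts at an unadjusted p and by DESeq2 follow for each list. They cover the subset comparison without EGFP and EGFP in cDC1, in cDC2 and over both subsets. Between the subsets without EGFP, 15 of 24 ER chaperones and folding enzymes were higher and 8 lower in cDC1, with a median log2 difference of 0.38 against −0.04 over all genes; 2 higher and 1 lower had an unadjusted p under 0.05, and DESeq2 called 1 of each, beside 9.58% and 7.97% of all genes. Pdia3, a disulfide isomerase that also serves in loading of MHC class I, had 1448 and 1563 CPM in EGFP-negative cDC1 and 627 and 860.2 in EGFP-negative cDC2 (log2 1.02 ± 0.29, edgeR adjusted p 0.282). Ero1l, the oxidase that recharges disulfide isomerases, had a mean of 13.3 CPM against 131 (log2 −3.30 ± 0.73, edgeR adjusted p 0.159). Of 23 ERAD genes, 7 were positive and 16 negative in the same comparison, with a median of −0.39, where Herpud1 was at 1.63. At an unadjusted p under 0.05, 0 were higher and 2 lower, and DESeq2 called 1 lower. Of 33 targets of ATF4 and CHOP, 1 was higher and 2 lower at that p, and DESeq2 called 2 higher and 1 lower. Of 26 translocon and early secretion genes these counts were 3 and 2, and 1 and 2. The lists of mRNAs degraded by IRE1 and of cytosolic heat shock genes each had 0 higher and 1 lower by either measure.

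For EGFP, of 24 ER chaperones and folding enzymes tested, 18 were negative and 6 positive for EGFP in cDC1, with a median log2 difference of −0.56 against −0.04 over all genes; 5 lower and 1 higher had an unadjusted p under 0.05, and DESeq2 called 3 lower and 1 higher, beside 12.7% and 12.3% of all genes. In cDC2 the same list had a median of 0.03 against 0.08, with 14 positive and 10 negative, 2 lower and 1 higher at an unadjusted p under 0.05, and 0 called by DESeq2, beside 2.63% and 1.03% of all genes. These shares of all genes apply to the lists that follow as well. Dnajc3, a BiP cofactor that also restrains PERK, had 242 and 216 CPM in EGFP-negative cDC1 and 87.7 and 39.0 in EGFP-positive cDC1, a log2 difference of −1.85 ± 0.43 (edgeR adjusted p 0.191). Sil1, the nucleotide exchange factor of BiP, had 37.9 and 58.5 CPM against 4.20 and 1.19 in those groups (adjusted p 0.257).

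Of 26 genes of the translocon and early secretion, 20 were negative for EGFP in cDC1, with a median of −0.27, and 13 in cDC2, with a median of 0.05. At an unadjusted p under 0.05, 4 were lower and 2 higher in cDC1, where DESeq2 called 1 lower and 2 higher, and 0 in cDC2 by either tool. Sec11c, a subunit of the signal peptidase, had 185 and 166 CPM in EGFP-negative cDC1 and 29.1 and 49.4 in EGFP-positive cDC1 (log2 −2.16 ± 0.40, edgeR adjusted p 0.140). Of 23 ERAD genes, the list closest in role to Herpud1, 13 were positive and 10 negative for EGFP in cDC1 and 10 and 13 in cDC2, with medians of 0.45 and −0.10. In cDC1, 2 ERAD genes were higher and 0 lower at an unadjusted p under 0.05, as by DESeq2, and in cDC2 0 by either measure. Edem2, which trims mannose from misfolded glycoproteins, had 57.9 and 19.2 CPM in EGFP-negative cDC1 and 126 and 128 in EGFP-positive cDC1. It had 63.8 and 58.0 CPM in EGFP-negative cDC2 and 34.0 and 22.9 in EGFP-positive cDC2, with an edgeR adjusted p of 0.298 in cDC1 and 1 in cDC2. Its EGFP differences had the signs of those of Herpud1, whereas between the subsets without EGFP it was at −0.66 on the log2 scale and Herpud1 at 1.63.

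Among 33 tested targets of ATF4 and CHOP, 23 were positive for EGFP in each subset, with medians of 0.69 in cDC1 and 0.72 in cDC2, and 26 were positive over both, with a median of 0.49 against −0.05 over all genes. At an unadjusted p under 0.05, 3 were higher and 1 lower in cDC1, 2 and 0 in cDC2, and 3 and 0 over both; DESeq2 called 3 higher and 2 lower, 2 and 0, and 1 and 0. In cDC1 these counts lay near the shares of all genes (12.7% and 12.3%); in cDC2 the shares were 2.63% and 1.03%, and over both subsets 5.22% and 1.75%. Atf3, a stress-induced transcription factor, had 155 and 145 CPM in EGFP-negative cDC2 and 295 and 504 in EGFP-positive cDC2, and 279, 155, 411 and 286 in the EGFP-negative and then the EGFP-positive cDC1 libraries (log2 1.05 ± 0.32 over both, edgeR adjusted p 0.951). Ppp1r15a (GADD34), which reverses eIF2alpha phosphorylation, had a log2 difference of 1.34 ± 0.59 over both subsets (edgeR adjusted p 0.951).

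Some ATF4 targets differed widely between replicates. Nupr1, a stress-induced chromatin protein, had 116 CPM in replicate 1 of EGFP-positive cDC1 and 12.1 in replicate 2. Asns, Chac1 and Trib3, chosen after their values were seen, had 85.3, 151 and 64.1 CPM in that replicate 1 and 0, 0 and 0.0702 in replicate 2. The same library had 674 CPM of Sparc and 90.8 of Col3a1, matrix genes of fibroblasts, and 136 of Msln, an epithelial marker, against 0.140, 0 and 0 in replicate 2. Other markers of these lists had the opposite order, with Fn1 at 0.131 CPM in replicate 1 and 231 in replicate 2 and Cdh1 at 0.0438 and 49.3. Replicate 2 of EGFP-positive cDC2 had 51.1 CPM of Asns and 126 of Sparc, against 0.364 and 0.0521 in its replicate 1. The 10 fibroblast markers together summed to 807 and 237 CPM in EGFP-positive cDC1 and 10.4 and 18.1 in EGFP-negative cDC1. They summed to 525 and 824 CPM in EGFP-positive cDC2 and 233 and 1017 in EGFP-negative cDC2. Most of each cDC2 sum was Fn1, at 525 and 652 CPM in EGFP-positive and 231 and 1016 in EGFP-negative cDC2. In EGFP-negative cDC2 no other marker of the list exceeded 1.51 CPM, and 1 of the 10 was at 0 in all 8 libraries. The part of these markers in the differences of Atf4, Ddit3 and Sdf2l1 was not tested.

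The list of sensors and of the proteases that process them also held Creb3, Creb3l1 and Creb3l2. Creb3 had 43.8 to 95.5 CPM and Atf6b 9.38 to 57.2, and no other gene of the list exceeded 43.0 CPM. Of 9 tested, 6 were positive for EGFP in each subset, and 0 had an unadjusted p under 0.05 or a DESeq2 call for EGFP. Between the subsets without EGFP, 3 were positive and 6 negative in cDC1. There 0 were higher and 1 lower at an unadjusted p under 0.05, beside 9.58% of all genes. DESeq2 called 1, Ern1, which encodes IRE1, lower in cDC1, beside 7.97% of all genes. Ern1 had 0 to 0.772 CPM in the 4 cDC1 libraries and 1.46 to 7.96 in the 4 cDC2 libraries. Atf6 had 15.4 to 20.4 CPM in the 4 cDC1 libraries and 15.9 to 43.0 in the 4 cDC2 libraries, and its log2 difference between the subsets without EGFP was −1.03 ± 0.69 (edgeR adjusted p 0.686). Of 8 tested mRNAs known to be degraded by IRE1, 6 were positive and 2 negative for EGFP in cDC1, and 2 and 6 in cDC2, with 1 higher and 1 lower at an unadjusted p under 0.05 in cDC1 and 1 higher in cDC2; DESeq2 called 1, Hgsnat, in cDC1 and 0 in cDC2. Hgsnat, a lysosomal acetyltransferase on that list, had 12.6 and 24.5 CPM in EGFP-negative cDC1 and 0 and 0.0702 (0 and 1 counts) in EGFP-positive cDC1, with an edgeR adjusted p of 0.0777. It had 51.0 to 92.9 CPM in the cDC2 libraries. Of 18 cytosolic heat shock genes, which belong to a separate stress response, 12 were positive for EGFP in cDC1 and 13 in cDC2, with medians of 0.31 and 0.41; the first was 0.19 when genes without counts in a group were compared with a floor of 3 counts over that group, and 39 of 40 such list medians did not change at 2 decimals. Of these genes, 1 in each had an unadjusted p under 0.05, Dnaja1 lower in cDC1 and Hsp90aa1 higher in cDC2. DESeq2 called 1 in cDC1, Cryab higher, and 0 in cDC2. For EGFP over both subsets, 5.22% of all genes had an unadjusted p under 0.05 and DESeq2 called 1.75%. At that p, the chaperone list had 1 higher and 4 lower, and the ERAD list 0 and 1. The translocon, IRE1 substrate and heat shock lists had 1 higher and 0 lower each, and the sensor list 0 and 0. DESeq2 called 1 higher and 0 lower in each of the chaperone, translocon and IRE1 substrate lists. It called 0 in the sensor, ERAD and heat shock lists.

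**Figure D4:**
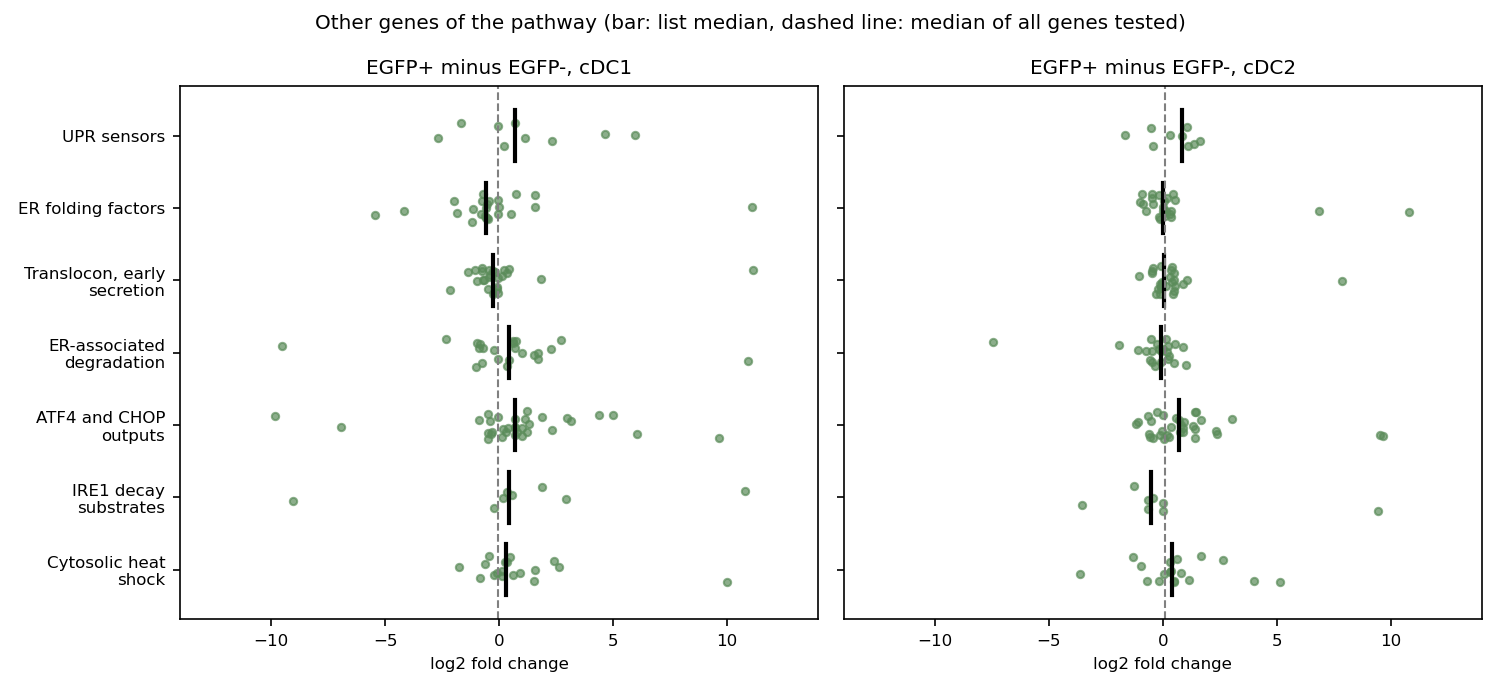
Log2 differences of the single genes of each pathway list (points) with the list median (bar) and the median of all genes tested (dashed line), for EGFP in cDC1 and EGFP in cDC2. The outermost points belong to genes at or near 0 counts in a group, whose values depend on the prior count. ER chaperones have a median of −0.56 in cDC1 and 0.03 in cDC2, and targets of ATF4 and CHOP 0.69 and 0.72.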

How the data were processed

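RNA was measured in 8 bulk libraries of sorted cDC1 and cDC2, grouped by title. Per the labels' protocols, a published method for small samples gave full-length cDNA, and KAPA reagents the libraries. The submitters' processing notes name the mm10 build, Trimmomatic 0.39, STAR 2.7.5c and Cufflinks 2.2.1. Which counter and annotation were used, and whether strand was, is not given in the sources used here. Raw counts were deposited by the authors as whole numbers per gene symbol; 0 columns had no sample.

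The main test was edgeR 4.0.16 (R 4.3.3) on the counts: a filterByExpr filter, TMM scaling, glmQLFit (robust) and glmQLFTest, two-sided, with Benjamini-Hochberg adjustment over 11394 genes and a threshold of 0.05. All libraries entered a 4-group model, and EGFP over both subsets an additive one. Standard errors were derived from the fold change and F. The biological coefficient of variation was 1.13, so modest differences were seldom detectable with 2 libraries a group. A floor of 3 counts is 0.135 to 0.168 CPM before scaling, and covers counting error only, since PCR copies cannot be told from separate molecules. Alternatives were DESeq2 1.42.0, RLE scaling, other filters, no robust estimation, the compared libraries alone, a replicate block, removal of Rn45s, the averaged contrast of the 4-group model, and each library left out; leaving out both EGFP-positive cDC1 libraries and a crossed block were added after seeing the data. The fit was also run on counts simulated from its own model. That run cannot show whether the model suits these libraries.

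The members, lists and tests were chosen with earlier results of these data known. All members were read. Other genes were named if past the threshold or among the 3 of smallest p in a list and comparison. The latter needed a mean of at least 5 CPM. Marker genes and the levels of Mars, Atf6, Ern1, Asns, Chac1, Trib3 and Cryab in the text were chosen after their values were seen. No member was tested between the EGFP-positive subsets, nor Herpud1 in any EGFP comparison, since those libraries served to choose it; a planned test of Herpud1 over both subsets is given as a value only. Exon lengths and positions come from GENCODE M21 (GRCm38), promoters from RefSeq (GRCm38.p6).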

Additional observations from a re-analysis of the deposited data

Results flagged for a closer look

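Xbp1 in replicate 2 of EGFP-positive cDC1, at 299.5 CPM, stood far from the other 3 EGFP-positive libraries, which were at 129 to 140.0 CPM. This gap exceeded Dixon's critical value for 4 samples; 20 sets of 4 libraries (each member in each EGFP fraction) were screened, and chance marks about 1 in 20.

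The EGFP difference of Herpud1 was 2.11 ± 0.54 larger in cDC1 than in cDC2 on the log2 scale. Both EGFP-positive cDC1 libraries were above both EGFP-negative ones, and both EGFP-positive cDC2 libraries were below both EGFP-negative ones. This difference was not tested, since the EGFP-positive libraries were used to choose the gene; the cause was not tested either.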

How the results depend on the processing

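The number of genes called over the whole table depended on the settings. DESeq2 called 838 genes between the subsets without EGFP (41 by edgeR), 1325 for EGFP in cDC1 (0), 110 for EGFP in cDC2 (0), 184 for EGFP over both subsets (0), 714 for the difference between the EGFP effects (0) and 1586 between the EGFP-positive subsets (26). With no low-count filter these counts were 112 between the subsets without EGFP, 57 for EGFP in cDC1, 29 for the difference and 153 between the EGFP-positive subsets. Without robust estimation 25 and 12 genes were called between the subsets without and with EGFP, and 292 and 0 from the compared libraries alone. With both EGFP-positive cDC1 libraries left out, chosen after seeing the data, 392 were called between the subsets without EGFP. Leaving out each library in turn gave 1 to 465 genes between the subsets without EGFP, 1 to 1273 between those with EGFP, 0 to 1050 for EGFP in cDC1 and 0 to 668 for the difference. The cause was not tested.

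Libraries of the same replicate number share a code in their titles, whose meaning is not stated. The replicate numbers were not taken to pair the libraries. The correlation of replicate differences between groups ran from −0.22 to 0.04. Such values cannot exclude a shared origin, since spread within a group can hide it, so pairing was not settled. With the replicate block 3 genes were called between the subsets without EGFP and 0 between those with EGFP. Exchanging the numbers in EGFP-positive cDC2 (crossed replicate block, added after seeing the data) gave 8 between the subsets with EGFP.

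No member was called by the main edgeR fit in any comparison in which it was tested. Of 980 alternative values for the members, 7 gained a call, 1 reversed and 22 others moved by more than 1 SE. The 980 include the untested values, which could not gain a call. These are all members between the EGFP-positive subsets and Herpud1 in the EGFP comparisons. Dnajb9 for EGFP in cDC1 was −9.92 without replicate 2 of EGFP-positive cDC1, which leaves the library with 1 count, and 1.24 without replicate 1. Without that replicate 2, its difference between the EGFP effects was −10.24. A lone library in a group was assumed to vary like the other groups. The gained calls came from DESeq2 or from runs with such a lone library. Under RLE scaling, 5 rather than 3 members did not overlap between the EGFP-positive subsets, and 2 rather than 3 over both subsets for EGFP, as with Rn45s removed. RLE scaling moved the median of all genes from −0.30 to −0.20 between the EGFP-positive subsets and from −0.20 to −0.06 for the difference between the EGFP effects. Sdf2l1 and Ddit3 kept their signs in every alternative run for EGFP in each subset and over both, as did Atf4 except in cDC1 alone. These runs reuse the same counts, and for Sdf2l1 and Ddit3 the EGFP-positive libraries did not overlap the EGFP-negative libraries. Leaving out 1 library could thus hardly change those signs, and nothing is read from them. Herpud1 kept its sign in every alternative run. Outside the EGFP-negative comparison those runs reuse the libraries that chose Herpud1. Within it, both cDC1 libraries were above both cDC2 libraries, so nothing is read from its sign in either case.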
